A study of Mus musculus with 2 samples.

Results

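Venous cells were compared with Gpihbp1/Aqp1 capillary cells, both of them blood endothelial cells of the mouse ileum, inside each of 2 single-cell RNA libraries. The ileum is the last stretch of the small intestine. The libraries came from wild-type male C57Bl/6 mice of 8 weeks, and the labels name no transgene, deletion or treatment. Cells had been sorted as CD31-positive and negative for EpCAM and CD45, with PDPN-negative (blood) and PDPN-positive (lymphatic) endothelial cells both taken. No label ties a library to a mouse or a pool of mice. Every p-value therefore rests only on how differences between classes vary across these 2 libraries, which may be technical.

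Cells were selected on raw counts of unique molecular identifiers (UMIs, 1 per captured RNA molecule) of 18 genes. A cell had to show at least 500 genes, at most 15% mitochondrial UMIs, at least 5 UMIs of Flt1, Cd34, Plvap and Esam together, and at most 2 of the lymphatic genes Mmrn1, Lyve1, Reln and Prox1. A cell was venous with at least 4 UMIs of Ackr1, Selp and Madcam1 together. It was a Gpihbp1/Aqp1 capillary cell, called capillary cell from here on, with at most 1 UMI of those genes, at most 1 of the arterial genes Sema3g, Fbln5, Stmn2, Gja5 and Bmx, and at least as many UMIs of Gpihbp1 and Aqp1 as of Plvap. This gave 531 venous cells (97 in library 1 and 434 in library 2) and 1143 capillary cells (195 and 948), together 1674 of the 7045 cells that passed the filter and of 7328 barcodes in all. Venous cells were 11.6% of the blood endothelial cells in library 1 (95% Clopper-Pearson interval 9.52 to 13.99%) and 9.14% in library 2 (8.34 to 9.996%), and capillary cells 23.4% (20.5 to 26.4%) and 19.97% (18.8 to 21.1%). The sort and the limits on raw UMIs can set these shares, and the intervals cover counting error only.

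Leukocytes leave the blood mainly through venules that follow the capillaries. There, P-selectin and E-selectin (Selp, Sele) slow rolling leukocytes, ICAM-1 and VCAM-1 hold them, ACKR1 carries chemokines across the endothelium, and MAdCAM-1 receives lymphocytes that home to the gut. Capillaries exchange water, solutes and lipids with the tissue: GPIHBP1 holds lipoprotein lipase on their luminal surface, and AQP1 is a water channel. The transcription factor NR2F2 (COUP-TFII) is known for keeping venous identity, and NOTCH and SOX17 for the arterial one.

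Library 1 held 3806199 UMIs in 1026 barcodes and library 2 held 26645476 UMIs in 6302. UMIs were summed per library and class. The venous sums came to 532588 and 2899035 UMIs, and the capillary sums to 613938 and 3381476. Venous cells were the deeper ones, with medians of 5325 and 6339.5 UMIs per cell against 2896 and 3237 in capillary cells, and had 3.86 and 3.73% mitochondrial UMIs against 1.83 and 2.06%. The rule itself favours deep cells as venous and shallow cells as capillary. With every cell of at least 2000 UMIs thinned to 2000, 1274 genes were higher and 1001 lower in venous cells. That setting held 89 and 418 venous cells and 163 and 824 capillary cells. Among cells of 2000 to 8000 UMIs, 1606 genes were higher and 1305 lower. Both settings kept the classes drawn from full counts, so they cannot remove the dependence of the rule on depth. Only 2 barcodes occurred in both libraries, and they belonged to 1 venous cell, 2 capillary cells and 1 Plvap-high cell, a class described below. Among cells with doublet scores in the top 5% of their library, 4 cells of library 1 and 52 of library 2 were venous (4.12 and 11.98% of venous cells), and 7 and 32 were capillary (3.59 and 3.38% of capillary cells).

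The genes of the rule are given as a description, with no test. Levels here and below are CPM, that is UMIs per 1000000 of a class total, after scaling by trimmed mean of M values (TMM), with library 1 before library 2. They follow the number of RNA molecules captured, not gene length, so they are compared between classes and not between genes. Selp stood at 5490.5 and 4469.8 CPM in venous cells and at 2.96 and 5.84 in capillary cells. Ackr1 stood at 2298 and 2403 in venous cells against 2.96 and 5.01 in capillary cells, and Madcam1 at 1791 and 1593 against 5.92 and 2.50. Plvap, which forms the diaphragms of fenestrae, stood at 3514 and 3865 in venous cells against 254 and 373 in capillary cells. Gpihbp1 was at 0 and 82.9 in venous cells against 1697 and 1538 in capillary cells, and Aqp1 at 865 and 779.8 against 5331 and 4296. Venous cells therefore kept part of the Aqp1 level, and 13 cells of library 1 and 35 of library 2 had at least as many UMIs of Gpihbp1 and Aqp1 as of Plvap. The arterial rule genes were not limited in venous cells. Fbln5 reached 304 and 321 CPM in them against 5.92 and 4.73 in capillary cells, and Stmn2 94.8 and 112 against 22.2 and 26.7.

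Cells near the thresholds were few. In library 2, 21 cells had 2 UMIs of the venous rule genes and 11 cells had 3, and they were in neither class, while 12 venous cells had exactly 4. The 12 cells just inside stood at 13681 unscaled CPM of Fabp4, 753.7 of Gpihbp1 and 1229 of Icam1, and the 11 cells just outside at 10043 of Fabp4, 204 of Gpihbp1 and 574 of Icam1. Both groups were thus rich in the fatty acid carrier Fabp4. On the capillary side, 44 cells had equal UMIs of Plvap and of Gpihbp1 and Aqp1 together, and 39 cells outside the class had 1 more of Plvap. These stood at 9293 and 8752 unscaled CPM of Fabp4 and 434 and 410.3 of Rgcc, a capillary marker.

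Venous and capillary markers that the rule did not use went with the class names. Their lists were chosen with earlier results of these data known, so they are no independent check. All 8 venous markers (Nr2f2, Vwf, Lrg1, Ephb4, Icam1, Vcam1, Sele and Cpe) rose in venous cells, and all 9 capillary markers (Rgcc, Cd36, Kdr, Car4, Cd300lg, Tcf15, Rbp7, Meox2 and Fabp4) fell. Here and below, rose and fell mean an adjusted p under 0.05 (edgeR's quasi-likelihood test, adjusted after Benjamini and Hochberg over 10665 genes). Of these genes 31.1% passed, 16.9% higher and 14.2% lower in venous cells. Ephb4, picked after its values were seen, rose little, from 152 and 165 CPM in capillary cells to 176 and 221 in venous cells (log2 fold change 0.36 ± 0.13). The summed level of the venous list was 8531 and 8161 CPM in venous cells against 735 and 787 in capillary cells. That of the capillary list was 4399 and 7124 in venous cells against 20349.8 and 24343 in capillary cells. Of 8 arterial markers tested, 4 fell and Jag1 rose. Of 3 lymphatic markers tested, Flt4 fell and Fgl2 rose. Fgl2, picked after its values were seen, stood at 184 and 145 CPM in venous cells against 4.44 and 5.56 in capillary cells.

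Nr2f2, the venous transcription factor, stood at 527 and 537 CPM in venous cells against 38.5 and 55.1 in capillary cells. Vwf, the gene of von Willebrand factor, stood at 1548 and 1454 against 178 and 193. The log2 fold changes were 3.41 ± 0.14 (SE) and 2.98 ± 0.11, and the groups did not overlap. With 2 values per class such separation is easily reached, so here and below it is a description only. Kdr, the main VEGF receptor, stood at 263 and 446 CPM in venous cells against 1279.8 and 1188 in capillary cells, a log2 fold change of -1.74 ± 0.15. Rgcc, a regulator of the cell cycle, had no UMI in venous cells of library 1, where a count of 0 allows up to 5.92 CPM, and stood at 74.0 in library 2, against 866 and 1049.7 in capillary cells. Its log2 fold change was -4.21 ± 0.58, and the call was lost with only the 2 classes in the fit (-4.40 ± 0.89, adjusted p = 0.102 in edgeR, the highest of 15 alternatives whose lowest was 9.55e-06).

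B lineage and erythroid RNA was low in both classes except through single cells. In library 2, immunoglobulin and other B lineage markers summed to 3467 CPM in venous cells, and 1 cell held 8858 of those 8995 UMIs (98.5%). Haemoglobin and other erythroid markers summed to 2761 CPM in the capillary cells of library 2, and 1 cell held 9916 of 9924 UMIs (99.9%). Igkc and Hbb-bs passed the test through these cells and are not read as endothelial. Pericyte and smooth muscle markers summed to 49.4 and 297 CPM in venous cells against 279.6 and 437 in capillary cells. Fibroblast markers summed to 11.8 and 247 against 76.9 and 504. RNA of these 2 kinds did not come from 1 cell alone, but few cells held much of it. In capillary cells of library 2 the top cell held 28.7% of the pericyte and smooth muscle UMIs and 28.0% of the fibroblast UMIs. The top 3 of those 948 cells held 68.7 and 70.2%. In venous cells of library 2 the top cell held 47.2 and 58.7%, and in capillary cells of library 1 63.5 and 57.7%. T cell markers were at 0 in the venous cells of both libraries. Cells with 3 or more UMIs of other cell types were 1.03 and 14.1% of venous cells and 3.08 and 6.43% of capillary cells. Without all such cells, 1773 genes were higher and 1493 lower in venous cells.

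The question set by the comparison is which genes separate the venous from the Gpihbp1/Aqp1 capillary endothelium of the same gut segment. Of the 10665 genes tested, 1800 were higher and 1519 lower in venous cells. Among them, 405 rose and 319 fell at least 4-fold (a log2 fold change of 2), and 120 rose and 60 fell at least 16-fold. Both libraries gave a gene the same sign in 98.3% of the genes that passed and in 72.3% of those tested. The split depends on scaling: without TMM the median log2 fold change of all genes was -0.26 in place of -0.03, and 1258 genes were higher and 2591 lower. Because genes expressed together with the rule genes move with them, the counts describe these classes as the rule drew them. Differences from the other capillary cells, the Plvap-high ones (2352 cells with more Plvap than Gpihbp1 and Aqp1), are given beside them. Both comparisons use the same venous sums, so their values are only set side by side. Venous against Plvap-high cells, 25.5% of genes passed, 13.7% higher and 11.8% lower in venous cells.

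**Figure D1:**
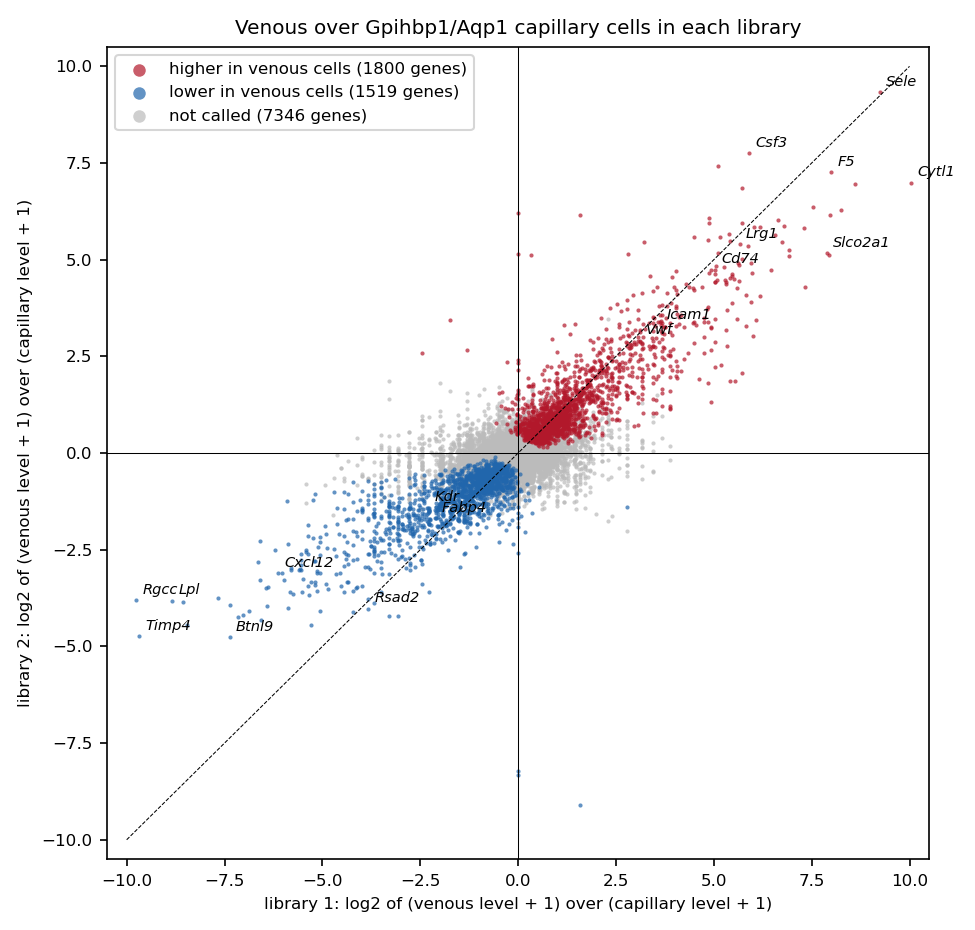
Change of each of the 10665 tested genes between venous and Gpihbp1/Aqp1 capillary cells, library 1 across and library 2 up, as log2 of (level + 1) over (level + 1). The 1800 genes higher in venous cells lie mostly in the upper right and the 1519 lower ones in the lower left, where many fell further in library 1 than in library 2, since venous cells of library 1 held 0 UMIs of genes such as Rgcc and Lpl.

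The genes with the largest increases were close to silent in capillary cells. Sele, the gene of E-selectin, stood at 604 and 824 CPM in venous cells against 0 and 0.278 in capillary cells. Over both libraries this was 2443 venous UMIs and 1 capillary UMI, a ratio of 3364 with a 95% counting interval from 603 to 132941. F5, which encodes coagulation factor V, stood at 255 and 152 in venous cells against 0 and 0 in capillary cells, at least 241-fold higher against a floor of 3 UMIs over the capillary class. Csf3, the gene of the neutrophil growth factor G-CSF, stood at 146 and 335 against 1.48 and 0.556, a ratio of 433 (148 to 2105). In each of these genes the lower venous library lay above both capillary libraries.

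The other large increases were of mixed function. Cytl1, a secreted cytokine-like protein, stood at 1058 and 762 CPM in venous cells against 0 and 5.01 in capillary cells (log2 fold change 7.56 ± 0.34, adjusted p = 1.25e-07 in edgeR). Adgrg6, an adhesion G protein-coupled receptor, stood at 965 and 679 against 1.48 and 4.45 (7.52 ± 0.22, adjusted p = 6.56e-20). Klk14, a secreted serine protease of the kallikrein family, stood at 207 and 180.0 against 2.96 and 0.556 (7.54 ± 0.34). Masp1, a protease of the lectin complement pathway, had 209 venous UMIs and 1 capillary UMI, and the keratin gene Krt19 had 275 and 2. Cyp1b1, a cytochrome P450, stood at 111 and 123 against 0 and 1.11, and Gm15987, a gene known by its model name, at 304 and 207 against 0 and 1.67. Cadm3, a cell adhesion gene, stood at 393 and 217 against 10.4 and 0.278. It overlaps the rule gene Ackr1 on the same strand, so its value is uncertain.

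The largest decreases were of mixed function too. Timp4, an inhibitor of matrix metalloproteinases, stood at 0 and 24.7 CPM in venous cells against 817 and 678 in capillary cells (log2 fold change -5.13 ± 0.43, adjusted p = 0.00110 in edgeR). Btnl9, a butyrophilin-like surface protein, stood at 0 and 4.63 against 164 and 152 (-5.31 ± 0.28). Slc1a1, a glutamate transporter, stood at 0 and 3.47 against 141 and 84.0 (-5.07 ± 0.43). Ccdc85a stood at 5.92 and 8.09 against 271 and 196 (-4.75 ± 0.21). Coro6 fell by 5.13, Vwa3a fell by 4.78, Lnx1 fell by 4.62 and Slc26a10 fell by 4.39 on the log2 scale, and all 4 were at 0 in the venous cells of library 1. Of the 12 largest decreases, Timp4, Coro6, Ptger4, Aqp7, Lnx1, Slc26a10, Bmp6 and Lpl did not pass against Plvap-high cells, where Timp4 stood at 12.8 and 9.46 CPM (log2 difference 1.003 ± 0.67).

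**Figure D2:**
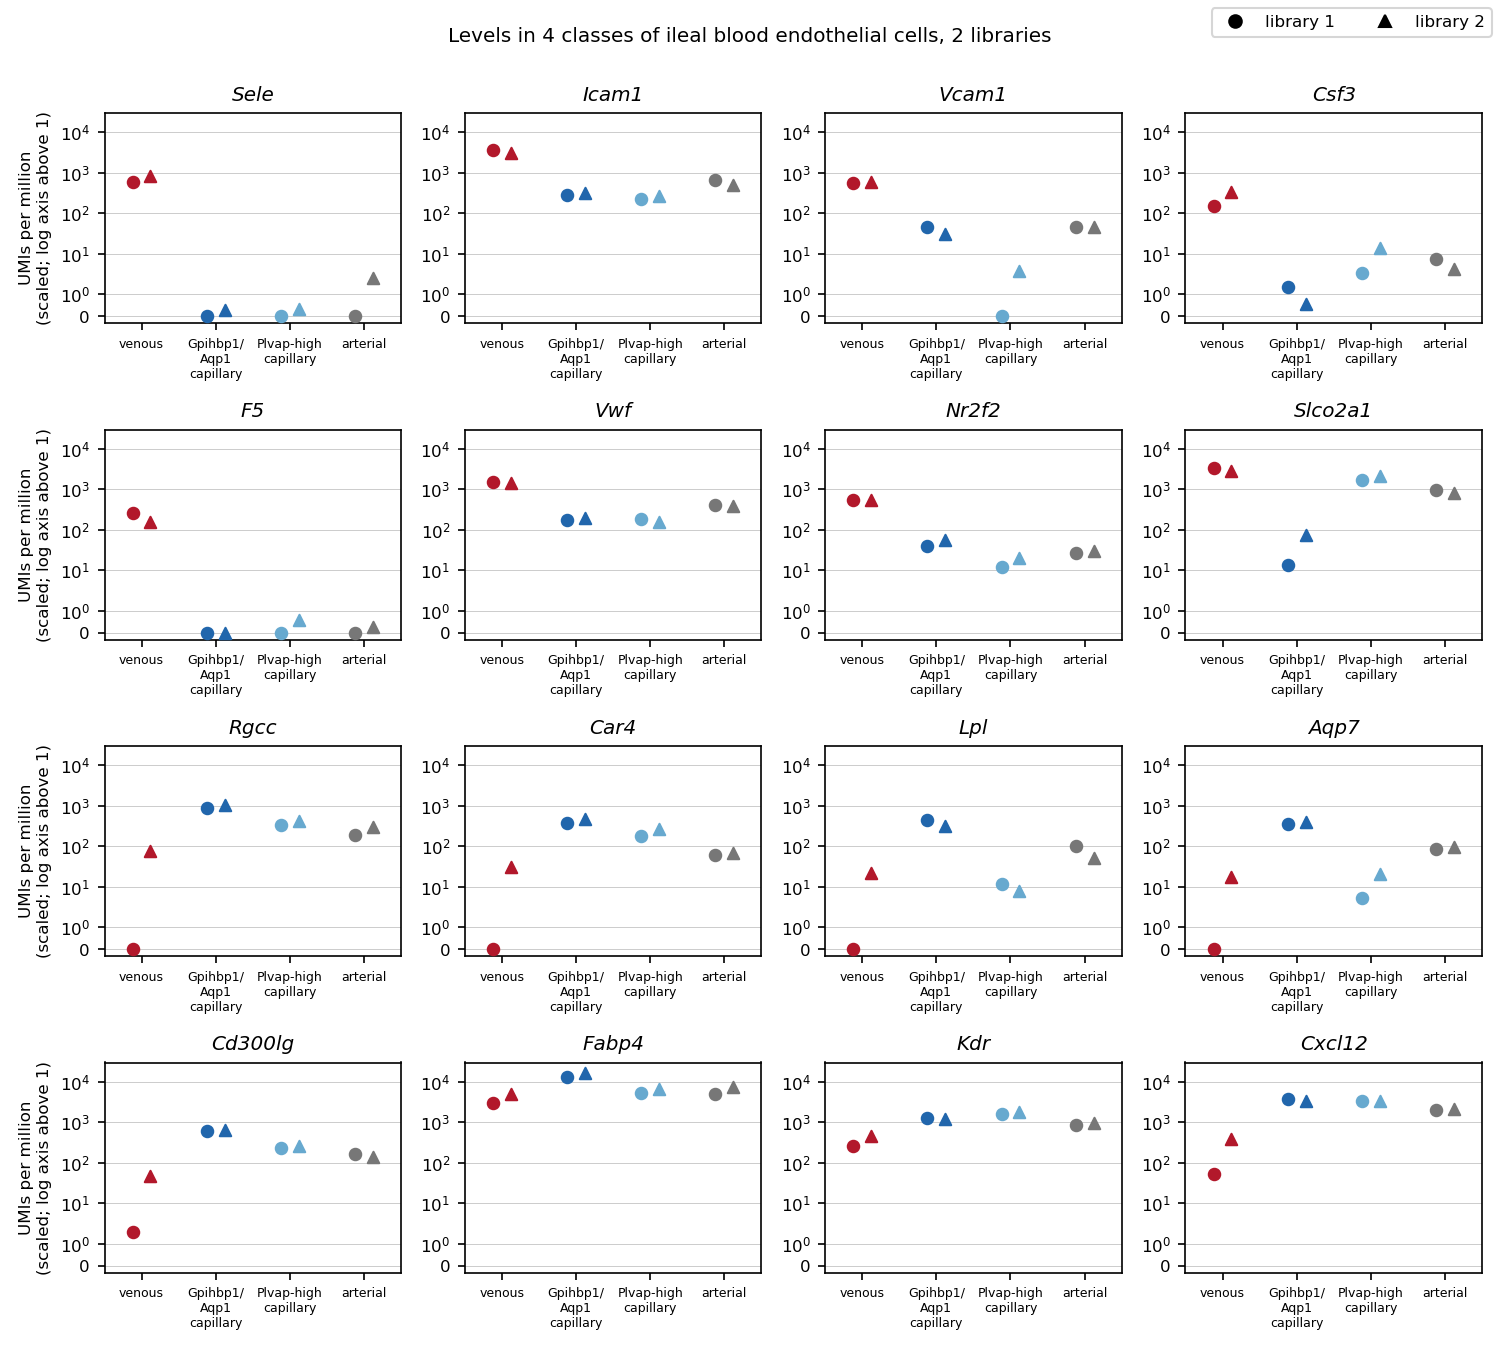
Levels of 16 genes (scaled CPM, linear from 0 to 1 and logarithmic above) in venous, Gpihbp1/Aqp1 capillary, Plvap-high capillary and arterial cells, with 1 circle for library 1 and 1 triangle for library 2. Sele and F5 are high in venous cells alone among the 4 classes, while Slco2a1 is low in Gpihbp1/Aqp1 capillary cells at 13.3 and 75.4 and at 812 or more in the other classes.

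Leukocyte adhesion genes moved in both directions. Of 17 tested, 8 rose, 5 fell and 4 did not pass, with a median log2 fold change of 0.16. Icam1, the ligand of leukocyte integrins, stood at 3549.8 and 3038 CPM in venous cells against 284 and 307 in capillary cells (3.45 ± 0.12, adjusted p = 9.18e-19 in edgeR's quasi-likelihood test). Vcam1, the ligand of the integrin VLA-4, stood at 545 and 604 against 45.9 and 29.8 (4.14 ± 0.18), and against Plvap-high cells, at 0 and 3.69, it differed by 7.49 ± 0.22. In both genes the venous values lay above all values of the other 3 classes. Icam2, Mcam, Cd47, Lgals3 and Bst1 rose too. The members that fell were the junctional adhesion genes Jam2 and Jam3, the sialomucins Podxl and Emcn, and Cd44. Pecam1, the gene of CD31, did not pass. In single cells thinned to 2000 UMIs, Sele had a UMI in 34.8% of 89 and 44.0% of 418 venous cells (44.3 and 57.1% before thinning), against 0 of 163 and 0.121% of 824 capillary cells (0 and 0.105%). Icam1 had a UMI in 86.5 and 86.6% of thinned venous cells (91.8 and 95.9%) and in 30.1 and 33.3% of capillary cells (35.9 and 43.1%). Free RNA can add to the shares in capillary cells, and its part was not tested.

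Genes for the sugars of selectin ligands rose in 4 of 8 tested and fell in none (median 0.64). Over all genes tested, 16.9% rose and 14.2% fell. With equal numbers of cells, 2 of 6 list genes tested rose and 1 fell. Against Plvap-high cells 5 rose and 2 fell. Those that rose against capillary cells were Gcnt1, B4galt1, St3gal4 and St3gal6, glycosyltransferases that extend and sialylate glycans. St3gal4 stood at 103 and 89.0 CPM in venous cells against 28.1 and 34.8 in capillary cells (1.48 ± 0.18). St3gal6 stood at 221 and 219.7 against 141 and 144 (0.62 ± 0.12). B4galt1 stood at 94.8 and 131 against 65.1 and 43.1 (1.34 ± 0.18), and with equal numbers of cells its call was lost (adjusted p = 0.0596 in edgeR, range over 15 alternatives 9.51e-15 to 0.0596).

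Of 25 cytokine and cytokine receptor genes tested, 17 rose, 2 fell and 6 did not pass (median 0.95). Il1r1, the interleukin-1 receptor, stood at 367 and 321 CPM in venous cells against 48.8 and 45.6 in capillary cells (2.85 ± 0.14). Tnfrsf11a, which encodes the receptor RANK, stood at 152 and 138 against 10.4 and 13.6 (3.42 ± 0.20). Il33, the gene of an alarmin released by damaged cells, stood at 55.3 and 43.9 against 0 and 3.62 (3.999 ± 0.48). Il6, Csf1, Il1rap, Il4ra, Il6ra, Il6st, Il3ra, Lifr, Osmr, both TNF receptor genes Tnfrsf1a and Tnfrsf1b, Tnfsf10 and Icosl rose as well. Il10rb and Ifngr1 fell.

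NF-kB is a transcription factor that some of these receptors activate, such as those for interleukin-1 and TNF, and it induces its own inhibitors. Of 22 feedback and target genes tested, 21 rose and Tnfaip8 did not pass, with a median of 1.43 against -0.03 over all genes tested. Against Plvap-high cells 19 rose and none fell. Tnfaip3, the deubiquitinase A20, stood at 231 and 458 CPM in venous cells against 44.4 and 32.8 in capillary cells (3.44 ± 0.32). Ptgs2, the inducible cyclooxygenase, stood at 27.6 and 134 against 0 and 1.95 (6.13 ± 0.35). Traf1, an adaptor of TNF receptors, stood at 115 and 129 against 17.8 and 9.18 (3.53 ± 0.24). Nfkbia, the main inhibitor of NF-kB and picked after its values were seen, stood at 2829 and 2753 against 652 and 657 (2.08 ± 0.10, adjusted p = 1.61e-17 in edgeR). In these 4 genes venous and capillary values did not overlap, but the share of all genes with such separation was not counted. By a looser measure, both libraries gave the same sign in 98.3% of all genes that passed and 72.3% of those tested. Tnfaip2 separated venous from capillary cells (186 and 187 against 10.4 and 18.4, 3.47 ± 0.18) but stood at 194 and 192 in Plvap-high cells, where the difference was -0.05 ± 0.12.

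Genes around interleukin-4, interleukin-6 and STAT3 signalling rose in 13 of 14 tested, and Socs1 fell (median 1.27). Il4ra and Il6st are on the cytokine list too. Lrg1, a secreted glycoprotein induced by STAT3, stood at 1546 and 1427 CPM in venous cells against 29.6 and 32.8 in capillary cells (5.56 ± 0.15). Il6st, the shared receptor subunit gp130, stood at 916 and 892 against 275 and 275 (1.71 ± 0.10). The feedback inhibitors Socs3 (2069 and 1778 against 744 and 822) and Socs2 (618 and 481 against 175 and 180.0) rose by 1.28 ± 0.09 and 1.56 ± 0.12. Cebpb stood at 82.9 and 371 against 5.92 and 49.8. It differed between libraries in both classes, and its call was lost without the replicate block (2.76 ± 1.44, adjusted p = 0.301 in edgeR, against 4.95e-71 to 0.301 over 15 alternatives).

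Promoter sequences are shown for Nfkbia, Tnfaip3 and Cish, because the NF-kB and STAT3 lists moved nearly as a whole, and for Icam1, the adhesion gene next to them. All 4 were chosen after the search for the letters below. Each window runs from 250 bases before to 50 bases after the gene start in RefSeq on GRCm38.p6, 5' to 3' on the strand of the gene. The windows are chr12:55492598-55492897 (minus strand) for Nfkbia, chr10:19015361-19015660 (minus) for Tnfaip3, chr9:107296409-107296708 (plus) for Cish and chr9:21015690-21015989 (plus) for Icam1. Capitals mark the NF-kB-like letters (GGG, then 3 bases of any kind, then TTCC) in Nfkbia and Tnfaip3 and the STAT-like letters TTCCNGGAA in Cish and Icam1, each searched on both strands. All 3 NF-kB-like matches in the windows shown lie on the opposite strand, so the capitals there run in reverse complement, and the STAT-like letters are their own reverse complement. The first match begins 29 bases before the gene start in Nfkbia, 12 before it in Tnfaip3, at the start in Cish and 42 before it in Icam1. Tnfaip3 has 2 windows in RefSeq, of which 1 is shown with its 2 matches.
Nfkbia: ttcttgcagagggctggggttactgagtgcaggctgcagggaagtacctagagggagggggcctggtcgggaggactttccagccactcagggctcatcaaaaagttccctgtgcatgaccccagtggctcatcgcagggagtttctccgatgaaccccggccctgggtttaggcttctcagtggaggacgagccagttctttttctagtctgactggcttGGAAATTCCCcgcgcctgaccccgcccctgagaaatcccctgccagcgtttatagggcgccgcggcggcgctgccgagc
Tnfaip3: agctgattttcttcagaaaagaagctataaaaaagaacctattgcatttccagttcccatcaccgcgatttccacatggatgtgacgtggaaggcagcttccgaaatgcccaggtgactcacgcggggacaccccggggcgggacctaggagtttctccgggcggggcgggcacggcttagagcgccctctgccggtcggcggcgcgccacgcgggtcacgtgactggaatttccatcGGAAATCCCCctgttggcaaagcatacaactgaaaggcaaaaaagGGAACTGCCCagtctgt
Cish: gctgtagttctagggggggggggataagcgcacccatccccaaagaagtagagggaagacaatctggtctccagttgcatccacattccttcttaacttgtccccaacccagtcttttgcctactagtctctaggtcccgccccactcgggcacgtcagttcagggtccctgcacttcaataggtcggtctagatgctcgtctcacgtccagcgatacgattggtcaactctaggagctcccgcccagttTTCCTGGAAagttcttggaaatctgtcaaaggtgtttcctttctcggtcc
Icam1: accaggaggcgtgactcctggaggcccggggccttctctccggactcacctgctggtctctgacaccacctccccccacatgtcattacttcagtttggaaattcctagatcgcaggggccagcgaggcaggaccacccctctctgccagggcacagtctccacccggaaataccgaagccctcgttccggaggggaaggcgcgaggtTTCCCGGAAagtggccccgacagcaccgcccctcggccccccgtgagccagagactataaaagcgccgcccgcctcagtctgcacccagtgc

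The NF-kB-like letters were found in windows of 6 of the 17 tested list genes with a RefSeq window (35.3%: Nfkbia, Nfkbie, Nfkb2, Rel, Tnfaip3 and Tnip1), against 7.42% of the 8328 tested genes with a window and 5.56% of all 32851 windows. The STAT-like letters were found for Cish and Bcl6 among 12 list genes (16.7%), against 1.57% of tested genes and 1.15% of all windows. A match describes the letters and is not a measured binding site. The lists were drawn from genes known to belong to these pathways, so a higher share of matches can follow from that choice. These shares hold no comparison of venous with capillary cells. Cish, a feedback inhibitor of the SOCS family and picked after its values were seen, stood at 158 and 146 CPM in venous cells against 57.7 and 63.7 in capillary cells (log2 fold change 1.27 ± 0.15).

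Chemokine genes rose in 6 of 11 tested and fell in 2. Cxcl10, which attracts activated T cells, stood at 489.6 and 504 CPM in venous cells against 20.7 and 9.46 in capillary cells (5.41 ± 0.19). Cxcl16 stood at 39.5 and 79.4 against 8.88 and 9.18 (2.92 ± 0.29), and Cxcl1, Cxcl2, Cxcl9 and the scavenger receptor Ackr3 rose too. Cxcl12 went the other way, with 53.3 and 391 in venous cells against 3789 and 3389.7 in capillary cells. Its log2 fold change of -3.81 ± 0.72 had an adjusted p of 0.0366 in edgeR, and the venous libraries lay far apart. The call was lost without the filter on low counts (adjusted p = 0.0747 in edgeR), with only the 2 classes in the fit (0.215) and with equal numbers of cells (0.0854), with a range from 2.98e-05 to 0.215 over 15 alternatives. Its receptor gene Cxcr4 stood at 0 and 1.54 against 20.7 and 29.5 (-4.37 ± 0.51).

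Genes of coagulation, fibrinolysis and complement control rose in 15 of 20 tested, fell in 2 and did not pass in 3 (median 1.32). Procr, the endothelial protein C receptor, stood at 543 and 781 CPM in venous cells against 14.8 and 20.6 in capillary cells (5.18 ± 0.18). Serping1, which encodes C1 inhibitor, stood at 215 and 229 against 4.44 and 24.5 (3.53 ± 0.28). Serpina3n, a serine protease inhibitor, stood at 249 and 169 against 0 and 1.39 (7.23 ± 0.31). Plat, Plaur, Tfpi, Pros1, Thbs1, Anxa2 and S100a10 rose as well. Thbd, the gene of thrombomodulin and a partner of Procr in activating protein C, fell, as did Plau, the gene of urokinase.

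Of 25 lipid handling genes tested, 13 fell in venous cells, 4 rose and 8 did not pass, with a median of -1.49. Lpl, the lipase that GPIHBP1 holds, stood at 0 and 21.6 CPM in venous cells against 456 and 317 in capillary cells (-4.27 ± 0.47, adjusted p = 0.00321 in edgeR). Cd300lg, a mucin-like surface receptor, stood at 1.97 and 47.8 against 602 and 656 (-4.08 ± 0.48). Fabp4, the fatty acid carrier, stood at 2936 and 5130.1 against 12812 and 16415 (-1.89 ± 0.09). Cd36, a fatty acid receptor, stood at 1033 and 1171 against 3388 and 3459 (-1.63 ± 0.09). Pparg, which drives such genes in fat cells, stood at 0 and 5.01 against 53.3 and 74.6 (-4.03 ± 0.38), and Angptl4, an inhibitor of lipoprotein lipase, at 0 and 5.78 against 72.5 and 37.8 (-3.23 ± 0.40). Fabp5, Scarb1, Pltp, Rbp7, Acsl1, Plin2 and Mgll fell too, while the members that rose included the lipoprotein receptor Vldlr, the cholesterol exporter Abca1, and Acsl5. Against Plvap-high cells 11 fell and 3 rose, but Lpl (1.06 ± 0.74), Cd36 (-0.20 ± 0.08), Pparg (-0.50 ± 0.53) and Angptl4 (0.41 ± 0.55) did not pass there.

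Capillary genes differed in what venous cells kept of them. Venous cells of library 1 held 1033 CPM of Cd36, 2936 of Fabp4, 263 of Kdr and 865 of Aqp1. Rgcc, Car4, Lpl, Aqp7, Pparg, Timp4 and Gpihbp1, picked here for being at 0 in those 97 cells, can be up to 5.92 CPM there at a count of 0. In venous cells of library 2 these 7 genes stood between 5.01 (Pparg) and 82.9 (Gpihbp1). The 35 venous cells of library 2 with at least as many UMIs of Gpihbp1 and Aqp1 as of Plvap held 417 unscaled CPM of Rgcc, 663 of Gpihbp1 and 12305 of Fabp4. The other 399 held 35.6 of Rgcc, 22.9 of Gpihbp1 and 3919 of Fabp4. Without such cells 1813 genes were higher and 1541 lower in venous cells. In the 382 venous cells of library 2 outside the highest 5% of doublet scores, Rgcc stood at 44.7, against 195 in the 52 cells inside it. The part of mixed droplets in these levels was not tested.

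Transporter genes were split, with 7 of 17 tested higher and 6 lower. Slco2a1, the prostaglandin transporter, stood at 3394 and 2747 CPM in venous cells against 13.3 and 75.4 in capillary cells (5.69 ± 0.56, adjusted p = 0.00629 in edgeR). It was also high in Plvap-high cells, at 1692 and 2076, where the difference of 0.70 ± 0.41 did not pass. With only the 2 classes in the fit its call was lost (adjusted p = 0.0550 in edgeR, range over 15 alternatives 3.27e-13 to 0.0550). Slco3a1, a related organic anion transporter, stood at 438 and 466 against 38.5 and 40.3 (3.49 ± 0.16) and was above Plvap-high cells too (3.33 ± 0.14). Aqp7, a channel for water and glycerol, stood at 0 and 17.0 against 349 and 392 (-4.83 ± 0.41), and Car4, a carbonic anhydrase on the cell surface, at 0 and 30.8 against 374 and 458 (-4.19 ± 0.38). Aqp7 stood at 5.10 and 20.1 in Plvap-high cells, where the difference from venous cells (-0.33 ± 0.57) did not pass, while Car4 stood between both classes there, at 175 and 266.

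Of 15 genes of caveolae, fenestrae and vesicle traffic tested, 5 rose and 8 fell (median -0.58). The coat genes of caveolae, Cav1, Cav2, Cavin1 and Cavin2, fell, and Cavin3 rose. The EHD family of membrane-shaping ATPases was divided. Ehd3 stood at 644 and 718 CPM in venous cells against 8.88 and 11.4 in capillary cells (6.04 ± 0.17), and Ehd4 at 958 and 1217 against 197 and 288 (2.13 ± 0.12). Ehd1 stood at 0 and 13.5 against 96.2 and 141 (-3.58 ± 0.27), and Ehd2 fell too.

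Of 17 VEGF, angiopoietin and apelin genes tested, 9 fell, 5 rose and 3 did not pass (median -0.96). With only venous cells low in arterial rule genes, 5 of 16 fell and 4 rose. Nrp1, a VEGF co-receptor, stood at 243 and 342 CPM in venous cells against 1193 and 1183 in capillary cells (-1.97 ± 0.11), and its relative Nrp2 rose. Unc5b, a netrin receptor, stood at 1.97 and 21.97 against 88.8 and 96.5 (-2.37 ± 0.25). Vegfc, the lymphatic growth factor gene, stood at 111 and 144 against 10.4 and 28.7 (2.46 ± 0.18). Tek, the angiopoietin receptor, rose, and its ligand gene Angpt2 fell, as did Apln, Aplnr and Esm1.

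Of 16 Notch pathway genes tested, 9 fell, 3 rose and 4 did not pass (median -0.83). The ligand Dll4 stood at 25.7 and 52.4 CPM in venous cells against 329.9 and 225 in capillary cells (-2.48 ± 0.27), and Jag2 at 41.5 and 51.7 against 175 and 195 (-1.97 ± 0.15). The receptor Notch4 stood at 3.95 and 17.3 against 123 and 116 (-2.98 ± 0.22). The target Hey1 stood at 0 and 16.2 against 96.2 and 82.9 (-2.71 ± 0.32). Efnb2 fell and Ephb4 rose, a pair of genes used as arterial and venous markers. Dll1 and Jag1 were the other members that rose.

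Among 19 BMP and TGF-beta genes tested, 5 rose and 5 fell. The ligand Bmp6 stood at 0 and 8.48 CPM in venous cells against 164 and 143 in capillary cells (-4.38 ± 0.28). The BMP target Id1 stood at 136 and 215 against 715 and 1029 (-2.31 ± 0.11), and Id3 at 308 and 501 against 842 and 1246 (-1.36 ± 0.10). Tgfbr2, a TGF-beta receptor, stood at 545 and 523 against 105 and 133 (2.08 ± 0.12), but below Plvap-high cells (1052 and 881, -0.84 ± 0.11). Bmpr2, Acvrl1, Smad5 and Tgfbr3 also rose, so that several receptors were higher and Id targets lower. Of 12 Wnt genes tested, 6 fell and 2 rose. The counts depend on the setting: DESeq2 gave 2 lower and 1 higher, no replicate block 3 and 2, and venous cells low in arterial rule genes 4 and 0 of 10 tested. Wnt5a and its antagonist family member Dkk2 rose. The receptor Fzd4 stood at 150.05 and 188 against 314 and 284 (-0.73 ± 0.12). Fzd6 changed by -0.78 ± 0.21 and Tspan12 by -0.44 ± 0.14, and both calls were lost in DESeq2 (adjusted p = 0.0893 and 0.183) and with equal numbers of cells (0.148 and 0.0562 in edgeR). Over 15 alternatives the adjusted p ran from 0.000231 to 0.148 for Fzd6 and from 0.000278 to 0.183 for Tspan12. Axin2, a target of Wnt signalling, Sfrp1 and Sox17, which was on this list too, also fell.

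Of 37 endothelial transcription factors tested, 14 rose, 13 fell and 10 did not pass (median -0.13). Nkx2-3, a homeobox factor needed for Madcam1 in mouse gut vessels, stood at 494 and 486 CPM in venous cells against 37.0 and 49.8 in capillary cells (3.41 ± 0.14). It was higher still in Plvap-high cells, at 579 and 619.9 (-0.31 ± 0.10). Sox17 stood at 107 and 177 against 510.4 and 589.5 (-1.91 ± 0.13). Meox1, Sox7, Foxc1, Foxc2, Foxf1, Foxp1, Foxo1, Lmo2, Hhex, Mecom and Prdm1 rose. Meox2, Tcf15, Sox18, Gata2, Klf6, Fli1, Tshz2, Irx3, Tbx3, Nfib and Epas1 fell. The pair Meox1 and Meox2 thus moved in opposite directions. Gata6 stood at 25.7 and 28.9 against 1.48 and 2.78 (3.40 ± 0.53), and its call was lost with equal numbers of cells (adjusted p = 0.133 in edgeR, range over 15 alternatives 2.66e-12 to 0.133).

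**Figure D3:**
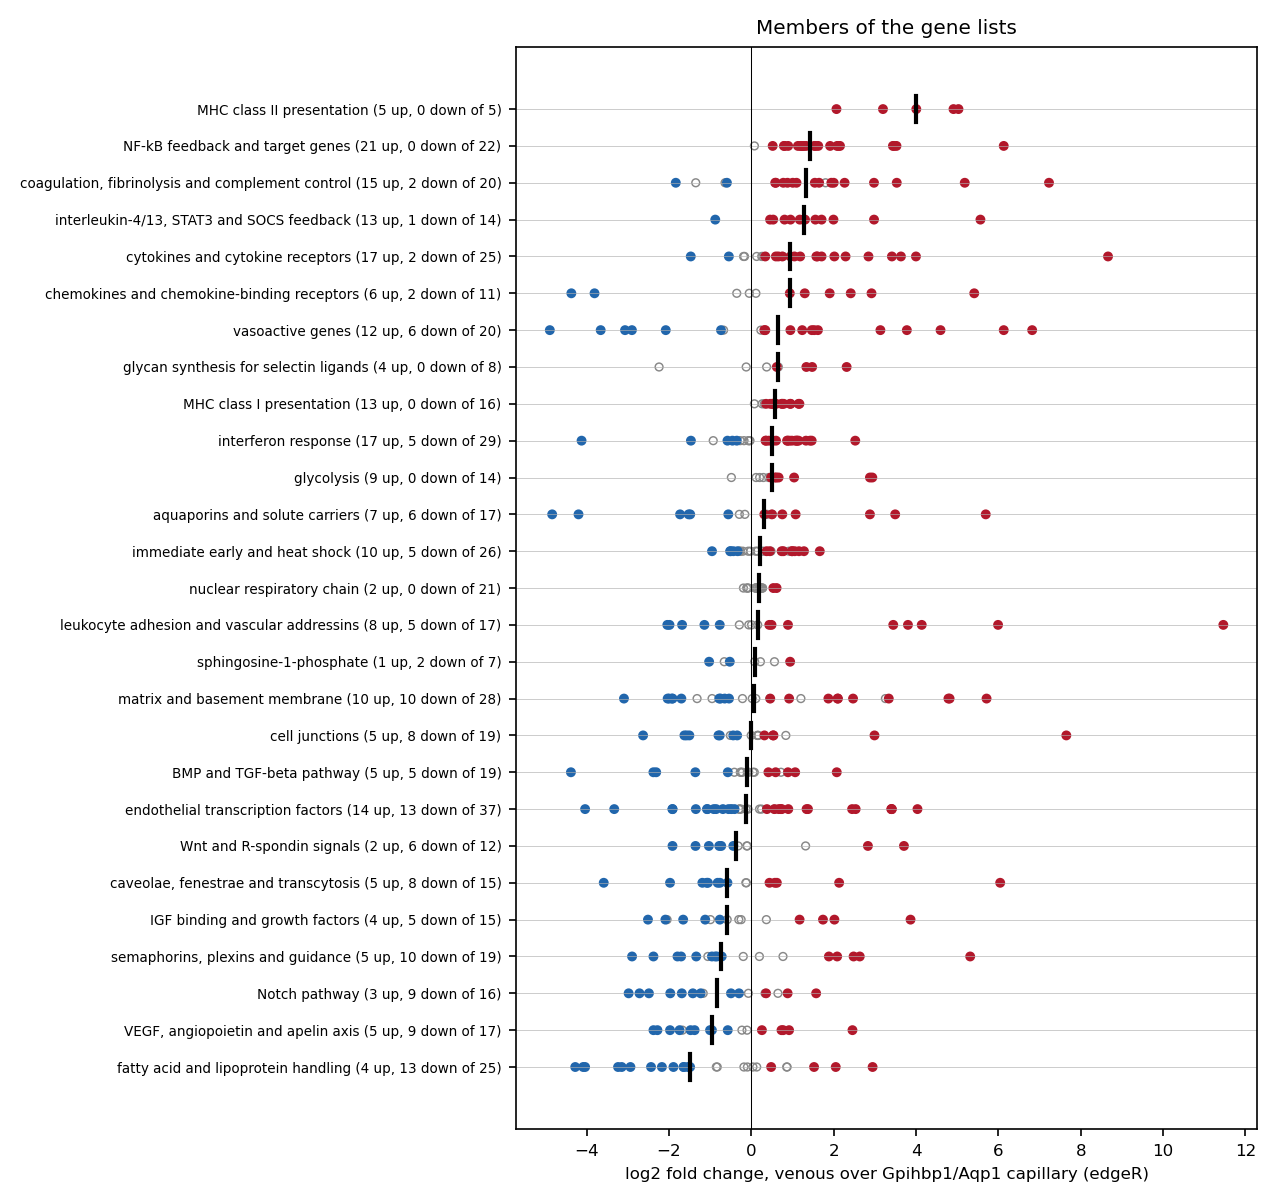
Log2 fold changes of venous over Gpihbp1/Aqp1 capillary cells for the tested members of 27 gene lists, ordered by their median (black bar), with filled red and blue points for genes that passed and open points for those that did not. All 5 tested class II genes and 21 of 22 NF-kB genes lie to the right with filled points, and 13 of 25 lipid handling genes lie to the left.

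Vasoactive genes rose in 12 of 20 tested and fell in 6. Hdc, which makes histamine, stood at 732 and 493 CPM in venous cells against 2.96 and 5.01 in capillary cells (6.82 ± 0.20), and the histamine receptor Hrh1 rose too. Gucy1a1, a subunit of the nitric oxide receptor guanylate cyclase, stood at 499 and 287 against 29.6 and 10.02 (4.60 ± 0.23), and its partner Gucy1b1 and the nitric oxide synthase Nos3 rose. Ptger4, a prostaglandin E2 receptor, stood at 0 and 3.85 against 129 and 87.1 (-4.89 ± 0.34). The endothelin genes Edn1 and Ednrb fell, as did Adm, Npr3 and Adora2a.

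Matrix genes rose in 10 of 28 tested, fell in 10 and did not pass in 8. The basement membrane genes Col4a1, Col4a2, Lama4, Lama5, Lamb2, Lamc1, Nid2 and Hspg2 fell, with Sparc and Sparcl1. The proteoglycans Bgn and Vcan, elastin (Eln), Col15a1, Nid1, the proteases Adamts4 and Adamts9, their inhibitor family members Timp1 and Timp2, and Mmrn2 rose. Adamts4, which cleaves proteoglycans, stood at 2073 and 2372 CPM in venous cells against 45.9 and 95.4 in capillary cells (4.82 ± 0.15). Vcan, the gene of the proteoglycan versican, stood at 178 and 90.2 against 1.48 and 4.45 (4.79 ± 0.48). Bgn stood at 245 and 304 against 20.7 and 30.3 (3.34 ± 0.42), and Timp1 at 49.4 and 54.7 against 4.44 and 0.278 (5.71 ± 0.48). Fibroblast and pericyte marker sums, given above, moved with the members that fell, being lower in venous cells in both libraries. Of 7 fibroblast markers tested 3 fell (Col1a1, Dcn and Dpt), and of 9 pericyte and smooth muscle markers 4 fell (Pdgfrb, Kcnj8, Abcc9 and Des), and none rose. Their part in the matrix values was not tested.

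Junction genes rose in 5 of 19 tested and fell in 8. Cldn15, a pore-forming claudin, stood at 7.90 and 21.6 CPM in venous cells against 118 and 118 in capillary cells (-2.63 ± 0.20). Cd93, a surface glycoprotein, stood at 312 and 408 against 1264 and 1056 (-1.62 ± 0.12), and Pcdh1, a protocadherin, at 43.4 and 72.1 against 175 and 189 (-1.50 ± 0.15). Cdh5, Ctnnb1 and Tjp1, core genes of adherens and tight junctions, fell, and Cldn5 did not pass. Ocln, Lsr, Pcdh17, Gja1 and Pkp4 rose. Cgnl1 stood at 3.95 and 10.02 against 45.9 and 22.5 (-1.57 ± 0.32), and its call was lost without the replicate block (adjusted p = 0.0780 in edgeR) and in thinned cells (0.0527), with a range from 3.95e-06 to 0.0780 over 15 alternatives.

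Antigen presentation genes were higher in venous cells. All 5 class II genes tested rose (H2-Aa, H2-Ab1, H2-DMa, H2-DMb1 and Cd74), and H2-Eb1, Ciita and Ctss were too low to test. Cd74, the class II chaperone, stood at 419 and 346 CPM in venous cells against 11.8 and 11.96 in capillary cells (4.91 ± 0.20). H2-Ab1 stood at 113 and 91.7 against 5.92 and 5.84 (4.01 ± 0.28). In library 1, B lineage markers summed to 3.95 CPM in venous cells against 0 in capillary cells, and pan-leukocyte markers to 1.97 against 5.92. In library 2 the pan-leukocyte sum was 32.4 in venous cells against 8.90 in capillary cells. There, leaving out cells with 3 or more UMIs of other cell types left 695 of 897 venous UMIs of Cd74 and 173 of 238 of H2-Ab1. The part of leukocyte RNA in the class II values was not tested. H2-Aa stood at 59.2 and 52.8 against 7.40 and 5.56 (3.20 ± 0.31), and its call was lost with equal numbers of cells (adjusted p = 0.0640 in edgeR, range over 15 alternatives 4.90e-22 to 0.0640). In thinned cells, Cd74 had a UMI in 40.4 and 17.5% of venous cells (44.3 and 28.8% before thinning) and in 3.68 and 1.94% of capillary cells (4.10 and 2.85%). Class I genes rose in 13 of 16 tested and fell in none, by less (median 0.57). H2-K1 stood at 3960.4 and 3286 against 2149.8 and 1641 (0.94 ± 0.08), and the peptide transporter Tap1 at 255 and 232 against 108 and 105 (1.17 ± 0.12). Genes of the H2 family are near-identical in places, so reads may be split between them.

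Interferon response genes rose in 17 of 29 tested and fell in 5 (median 0.50). Those that rose included the GTPases that interferon-gamma induces, Gbp2, Gbp3, Gbp4, Gbp6, Gbp7, Igtp, Irgm1 and Iigp1. Iigp1 stood at 2896 and 3071 CPM in venous cells against 1113 and 1055 in capillary cells (1.47 ± 0.10), and Gbp2 at 215 and 274 against 93.2 and 96.8 (1.43 ± 0.13). Rsad2, the antiviral protein viperin, stood at 13.8 and 8.09 against 209 and 147 (-4.12 ± 0.21). Ifit2 stood at 27.6 and 17.0 against 57.7 and 51.5 (-1.47 ± 0.24), and Stat2, Bst2 and Xaf1 fell too. The members that fell are thus genes known from the type I interferon response, while Ifit1, Isg15 and Oasl2, known from the same response, rose. Against Plvap-high cells 21 rose and 1 fell. Gbp genes share sequence, so values of single members are uncertain.

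Glycolysis genes rose in 9 of 14 tested and fell in none (median 0.50). Without scaling 5 rose and 1 fell (median 0.26), with equal numbers of cells 5 rose, and without the replicate block 6. Against Plvap-high cells 4 rose and 2 fell. The glucose transporter Slc2a1 stood at 109 and 146 CPM in venous cells against 14.8 and 19.5 in capillary cells (2.88 ± 0.18), and the lactate exporter Slc16a3 at 23.7 and 40.5 against 8.88 and 3.89 (2.94 ± 0.35). Pkm stood at 263 and 310.3 against 129 and 149.95 (1.04 ± 0.12). Pfkl changed less (0.66 ± 0.18), and its call was lost under 4 of 15 alternatives (adjusted p from 0.00119 to 0.180). Of 21 nuclear genes of the respiratory chain, Cox6c (0.61 ± 0.10) and Cox4i1 (0.54 ± 0.11) rose and 19 did not pass. The call of Cox4i1 was lost without the replicate block (adjusted p = 0.0927 in edgeR, range over 15 alternatives 1.22e-05 to 0.0927), and without scaling 2 rose and 3 fell.

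Immediate early and heat shock genes rose in 10 of 26 tested, fell in 5 and did not pass in 11. Atf3, a stress-induced transcription factor, stood at 1358 and 1373 CPM in venous cells against 679 and 564 in capillary cells (1.16 ± 0.10). Ier3 stood at 2827 and 2886 against 763 and 1027 (1.66 ± 0.10), and Zfp36, which destabilises inflammatory messages, at 2478 and 2364 against 1042 and 1277 (1.05 ± 0.09). Jun, Ier2, Dusp1, Btg2 and Hspb1 fell, and Fos, Egr1, Hspa1a and Hspa1b did not pass. Without scaling 7 rose and 9 fell.

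Guidance genes fell in 10 of 19 tested and rose in 5 (median -0.74). Sema7a stood at 9.87 and 34.7 CPM in venous cells against 226 and 219 in capillary cells (-2.89 ± 0.20). Plxnb2, a semaphorin receptor, stood at 154 and 125 against 25.2 and 20.3 (2.63 ± 0.18). The secreted ligand Slit2 had 90 venous UMIs and 3 capillary UMIs, a ratio of 41.3 (13.7 to 204), while Slit3 fell. Among 15 genes of IGF binding and growth factors tested, 4 rose and 5 fell. Igfbp4 stood at 768 and 621 against 10.4 and 56.8 (3.87 ± 0.48, adjusted p = 0.0108 in edgeR), and at 909.5 and 858 in Plvap-high cells. The insulin receptor Insr stood at 430.4 and 401 against 132 and 88.5 (2.02 ± 0.13). Pdgfb, which recruits pericytes, stood at 17.8 and 61.3 against 229 and 309 (-2.51 ± 0.18), and Pdgfd at 13.8 and 21.6 against 72.5 and 88.2 (-2.08 ± 0.20).

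Of 7 sphingosine-1-phosphate genes tested, the exporter Spns2 rose (282 and 291 CPM in venous cells against 141 and 155 in capillary cells, 0.94 ± 0.12). The receptor S1pr1 fell (371 and 379 against 922 and 668, -1.02 ± 0.11). Plpp1 fell by 0.52 ± 0.13, and its call was lost in DESeq2 (adjusted p = 0.0622) and without the replicate block (0.191 in edgeR), with a range from 2.12e-05 to 0.191 over 15 alternatives.

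Venous cells also varied among themselves. They were divided by UMIs of the venous rule genes per 10000 UMIs, with 57 cells below 20, 146 from 20 to 50, 164 from 50 to 100 and 164 at 100 or more. The values are unscaled CPM over both libraries and are a description, since the rule genes order the bins. Sele stood at 51.2, 180, 756 and 1408 from the lowest to the highest bin, Icam1 at 1308, 1545, 2799 and 4589.6, and Csf3 at 11.6, 95.3, 182 and 636. These 3 increased from bin to bin. Vwf stood at 1077, 1509, 1311 and 1288 and Nr2f2 at 358, 574, 475 and 465, so beyond the lowest bin they did not increase with the rule genes. Fabp4 went the other way, with 8855, 4811, 3518 and 2796, as did Rgcc with 184, 54.8, 39.1 and 21.2. Of the 57 cells in the lowest bin, 56 came from library 2 and 10 were among the highest 5% of doublet scores, so this end of the order rests on library 2.

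**Figure D4:**
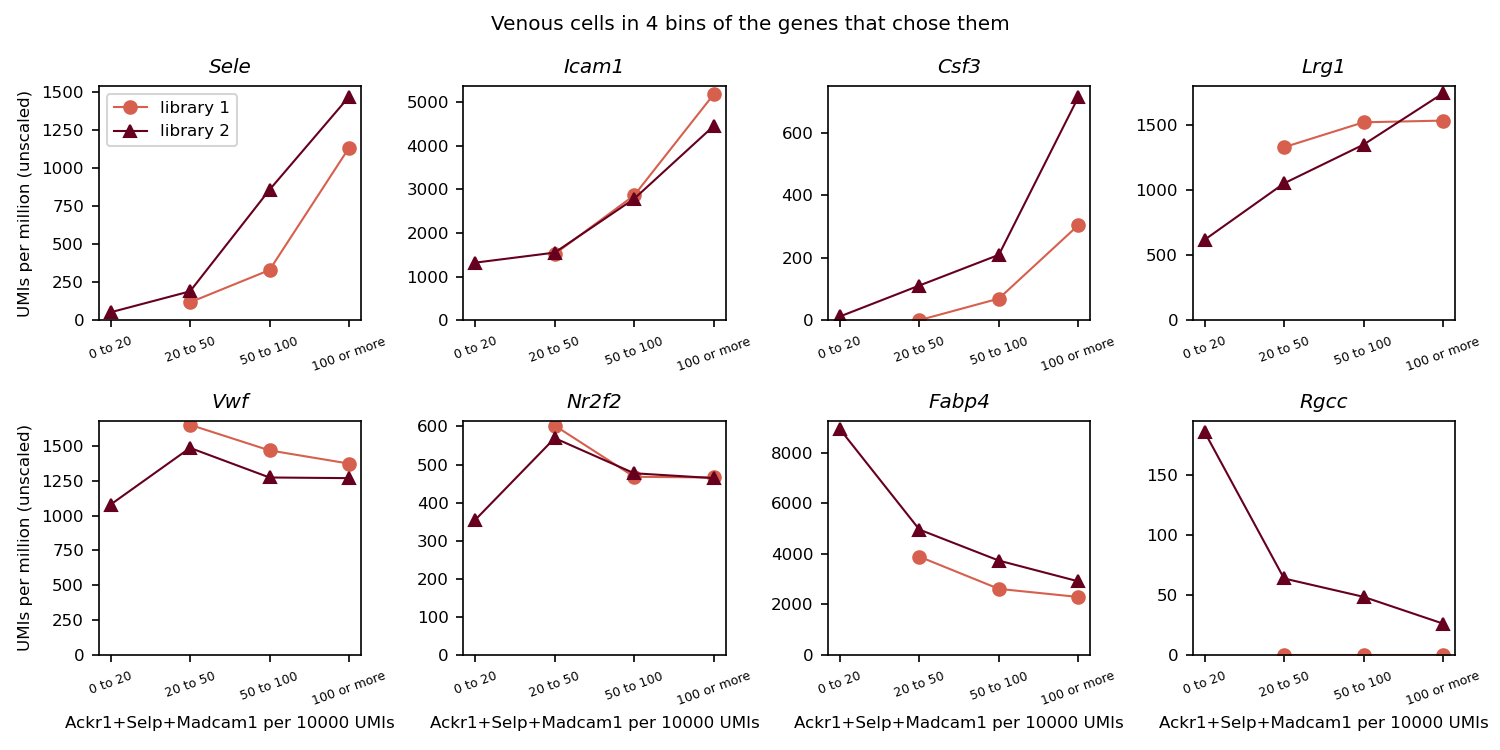
Levels of 8 genes (unscaled CPM) in venous cells binned by UMIs of Ackr1, Selp and Madcam1 per 10000 UMIs, with circles for library 1 and triangles for library 2; the lowest bin holds 1 cell of library 1 and is drawn for library 2 only. In both libraries Sele, Icam1 and Csf3 are highest in the top bin, and Fabp4 is lowest there.

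Venous cells were also divided by the arterial rule genes. The 138 venous cells with at least 4 UMIs of them stood at 651 unscaled CPM of Sele, 1463 of Vwf, 495 of Nr2f2 and 992 of Cytl1, at a median depth of 8016.5 UMIs. The 239 cells with at most 1 stood at 752 of Sele, 1159 of Vwf, 445 of Nr2f2 and 466 of Cytl1, at a median of 4963 UMIs. With only the cells holding at most 1 such UMI as venous cells, 1497 genes were higher and 1124 lower than in capillary cells.

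Capillary cells differed by which rule gene they held. Of the 1143, 862 had UMIs of both Gpihbp1 and Aqp1, 171 of Gpihbp1 without Aqp1, 93 of Aqp1 without Gpihbp1, and 17 of neither. Fabp4 stood at 16628 unscaled CPM in the cells with both, 23561 in those with Gpihbp1 only and 8852 in those with Aqp1 only. Vwf ran in the reverse order, at 206, 94.1 and 507, and Icam1 at 334, 223 and 436. Sele was at 0.320, 0 and 0, so none of these kinds of capillary cell approached the venous level. Shallow cells can lack a UMI of a gene they express, and the medians were 3270, 3170 and 2452 UMIs per cell.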

How the data were processed

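Single-cell RNA libraries were made with a droplet 3' kit, and the deposited files hold UMI counts per gene and cell barcode for 31053 genes, which the authors made with Cell Ranger 3.1.0 and bcl2fastq 2.2 on mm10, per the submitters' processing notes. Each library was one matrix, and its cells carry no mark of the sort gate. The raw counts were used as deposited.

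Cells were classed by the rule given in the opening. Besides venous and Gpihbp1/Aqp1 capillary cells, Plvap-high capillary cells (at most 1 UMI of the venous and of the arterial rule genes, more Plvap than Gpihbp1 and Aqp1) and arterial cells (at least 4 UMIs of the arterial rule genes, at most 1 of the venous ones) entered the fit, so that 8 sums left 3 residual degrees of freedom. UMIs were summed per library and class and tested with edgeR 4.0.16 (R 4.3.3): TMM, filterByExpr with a minimum count of 10, a robust quasi-likelihood fit with library as a block, and Benjamini-Hochberg adjustment over 10665 genes at 0.05. Classes of a library came from the same sample, which is where the pairing comes from. The block takes out the difference between libraries. The remaining spread of a gene was estimated over all 4 classes and drawn toward that of other genes (median prior degrees of freedom 27.7). Blocked and unblocked counts are in the closing section. The 18 rule genes and 13 mitochondrial genes were not tested. The SE is the absolute log2 fold change over the square root of F. Intervals are Clopper-Pearson at 95% for shares and conditional binomial for ratios of UMIs, and the limit for a count of 0 is 3 UMIs. They cover counting error only.

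Doublets were not removed. Scrublet (scanpy 1.11.5) called 6 cells of library 1 and 4 of library 2 (0.613 and 0.0659%) which for library 2 is too few for a working caller, so the highest 5% of its scores was set apart as an alternative. Data were also simulated from the mean profile of all 8 sums, with these library sizes and the fitted dispersions. In venous sums 100 genes were changed by 1 on the log2 scale and 100 by 2. The venous against capillary test found 60 of 99 and 89 of 97 tested, and called 8 unchanged genes, of 10431 tested. The simulation held no other difference between classes or libraries. It therefore cannot check error control or scaling in the real data, where 31.1% of genes passed. Gene positions come from GENCODE vM21 on GRCm38, where 99.9% of tested genes were matched, and promoters from RefSeq.

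The members and gene lists were chosen with earlier results of these data known. The genes named with values were the 12 largest increases and 12 largest decreases among genes that passed with at least 50 CPM (UMIs per 1000000) in the higher class of both libraries, up to 4 members that passed with at least 20 from each of 27 lists, the 18 rule genes and 10 markers. Other genes named with values are said to have been picked after their values were seen. Alternatives were DESeq2 1.42.0, no scaling, no low-count filter, the 2 compared classes alone, no replicate block, cells of 2000 to 8000 UMIs, cells thinned to 2000 UMIs, equal numbers of cells (97 per class), stricter cell filters and gates, and sets without high doublet scores, without UMIs of other cell types, low in arterial or in capillary rule genes, and without shared barcodes, the last 3 added after the data were seen.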

Additional observations from a re-analysis of the deposited data

How the results depend on the processing

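Under 15 alternatives, 106 of the 120 genes named by rule kept their call and direction wherever they were tested, 14 lost the call in at least 1 alternative and none changed direction. With equal numbers of cells, Il33, Bst1 and Slit2 were too low to test. The counts moved more. For venous against Gpihbp1/Aqp1 capillary cells, DESeq2 called 1968 genes (1141 higher and 827 lower in venous cells) and equal numbers of cells 1613 (855 and 758), in place of 3319 (1800 and 1519). No scaling called 2591 lower, and thinned cells called 1001 lower. For venous against Plvap-high cells, DESeq2 called 1545 (883 higher and 662 lower), thinned cells 1807 with 962 higher, and equal numbers of cells 1269 (689 and 580), in place of 2721 (1466 and 1255). Equal numbers and thinning use fewer UMIs; the cause of the other shifts was not tested. Without the replicate block, 2280 genes passed against Gpihbp1/Aqp1 capillary cells (1256 higher and 1024 lower), and 1647 against Plvap-high cells (900 and 747). The block also decided the calls of Tspan12, Cgnl1, Nlrc5 (adjusted p = 0.0625 without it, range over 15 alternatives 5.04e-05 to 0.0625, edgeR), Pfkl, Cox4i1, Plpp1 and Cebpb. Leaving out either library leaves no residual degrees of freedom, so the other library gives values with no test. No named gene then changed direction. By more than the spread between libraries, 68 of 120 moved in library 1 alone and 15 in library 2 alone. Lpl stood at a log2 difference of -8.84 in library 1 and -3.82 in library 2, with 1 CPM added to each level. Its venous count in library 1 was 0, which allows up to 5.92 CPM, so the size of -8.84 rests on the added 1 CPM.

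Without scaling, which moved the median of all genes by -0.24, the list medians became -0.08 for adhesion, -0.17 for matrix, -0.02 for immediate early, -0.05 for respiratory chain and -0.15 for sphingosine-1-phosphate genes, which were above 0 with TMM. The counts of NF-kB genes that rose ran from 15 to 21 with none falling, and of lipid handling genes that fell from 12 to 15, over all 15 alternatives. Those of cytokine genes that rose ran from 11 to 17, and of transcription factors from 7 to 14. In library 1 a count of 0 in venous cells allows up to 5.92 CPM, which limits the decreases that can be measured. The comparison rests on 97 venous cells there, and 2 libraries give the only replication.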

Other observations

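F5, Sele and the rule gene Selp are neighbours on chromosome 1 of GRCm38. Sele lies at chr1:164048234-164057677, Selp at chr1:164115264-164150026 and F5 at chr1:164151838-164220277, all on the plus strand. The other tested genes within 150 kb, Mettl18, Ccdc181 and Blzf1, did not pass, with log2 fold changes of -0.64, 0.17 and 0.03. This set was picked after the values were seen.

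The rule gene Ackr1 (chr1:173331886-173333750, minus strand) overlaps Cadm3 (chr1:173333258-173367695, minus strand), which is among the 12 largest increases. How the reads of the shared stretch were assigned was not tested.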
